A study of Homo sapiens with 14 samples.

Results

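The 35 genes described here serve the making, sulphation, supply or breakdown of chondroitin sulphate, the sulphated sugar chain that gives cartilage its charge and its hold on water. They were chosen by name and role, not by a rule on their values in these samples, from the 60587 genes in each table. Earlier results of these data were known when they were chosen. Of them, 6 build the linker to the core protein, 6 polymerise the chain, 8 sulphate it, 2 are epimerases that turn stretches of it into dermatan sulphate, 5 supply sulphate, 6 make, carry or recycle nucleotide sugars, and 2 are lysosomal sulphatases. RNA was sequenced from whole pellets made from the human embryonic stem cell line WA01, also known as H1. All pellets were grown in chondrogenic medium and taken at culture day 21 (4 libraries), day 30 (5 libraries) and day 45 (5 libraries). There was 1 cell line and no pellet in another medium, so each comparison is between times. Time cannot be told apart from anything else that changed as the culture went on. Nothing in the labels tells whether replicates came from separate pellets, cultures or differentiations. P-values therefore measure only the spread between these libraries.

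A chondroitin sulphate chain starts on a serine of a core protein such as aggrecan with a linker of xylose, galactoses and glucuronic acid, and grows by alternating N-acetylgalactosamine and glucuronic acid taken from UDP-sugars in the Golgi. Sulphotransferases then add sulphate from the donor PAPS to the 4-O or the 6-O position of N-acetylgalactosamine. Chondrocytes take up sulphate through SLC26A2, make PAPS in the cytosol and carry it into the Golgi, and inherited loss of several of these genes causes skeletal dysplasia.

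Each library held between 18183776 and 33660704 expected counts. The library titled day 45 replicate 1 carries a treatment label of 30 days, and it was kept at the day of its title. In 15 members the other day 45 libraries did not overlap day 30, and in all 15 that library also lay outside the day 30 range on the same side. Among all genes tested, all day 45 libraries, that one included, lay above day 30 in 19.8% and below it in 18.6%. The share of all genes in which that library followed the other day 45 libraries was not computed. That library differed from the other day 45 libraries by 31.37 to 56.33 chi-square units per degree of freedom, against 13.88 to 27.51 among those others. Its difference from the day 30 libraries was not measured in this way. Which of its labels is right was not tested. Among the libraries of day 30, replicates 3 to 5 stood apart. Their deviations from each gene's mean log expression over the libraries had a Spearman correlation with effective gene length, across genes, between -0.518 and -0.428, against -0.073 to -0.012 for the other two day 30 libraries. At days 21 and 45 it lay between 0.119 and 0.255. The cell type label names embryonic stem cells, but POU5F1, NANOG, LIN28A and SOX2 did not exceed 0.556 CPM in any library. DPPA4, the other gene of that marker list, averaged 14.4 ± 1.81 CPM at day 21, 4.297 ± 1.2 CPM at day 30 and 0.578 ± 0.324 CPM at day 45. The 9 chondrocyte markers summed to 35774 to 46921 CPM at day 21, 91379 to 220110 CPM at day 30 and 191390 to 304230 CPM at day 45. Most of that sum was COL2A1, which averaged 29899 ± 3498 CPM at day 21, 121790 ± 37917 CPM at day 30 and 167060 ± 40262 CPM at day 45. At day 30 against day 21, 7 of the 9 markers were called higher and 2 lower. CPM are counts scaled to library size by TMM, and TPM are the deposited length-scaled values.

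Of the 35 members, 34 passed the filter on low counts. The exception was CHST13, the least expressed of the chondroitin 4-O-sulphotransferases, which had between 0 and 6 expected counts in a library. At day 45 against day 21, 17 of the 34 members were higher, 6 were lower and 11 passed in neither direction (edgeR's quasi-likelihood test with Benjamini-Hochberg adjustment, adjusted p below 0.05). Of all 17838 genes tested, 27.1% were higher and 30.5% lower, 57.7% in either direction, against 17.6% of the members lower and 67.6% in either direction. All day 45 libraries were above all day 21 libraries in 17 members and below them in 4, where this held for 25.3% and 26.2% of the genes tested. The median log2 fold change was 0.39 over the members and -0.05 over all genes tested. Of the members called, 11 were more than 2-fold higher and 1 was more than 2-fold lower, against 1827 and 2694 of 17838 genes tested. The 11 were CHST3, PAPSS2, SLC35D1, SLC26A2, CHSY1, CHST11, XYLT1, UGP2, XYLT2, CSGALNACT1 and CHPF, which come from the linker, chain growth, sulphation, sulphate supply and sugar supply. The member more than 2-fold lower was CHST15. In a bulk sample, more cells of a type and more RNA per cell cannot be told apart, and the chondrocyte markers were higher at day 45 as well, with 7 of 9 called. Markers of hypertrophic chondrocytes summed to 1570 to 4091 CPM at day 45 and 31.2 to 59.7 CPM at day 21, those of neurons to 116 to 134 CPM at day 45 and 181 to 194 CPM at day 21, and those of endothelium to 8.52 to 11.6 CPM at day 45 and 23.9 to 32.3 CPM at day 21. Of the 6 neuron markers, MAP2 averaged 101 ± 6.18 CPM at day 45 and 171 ± 8.46 CPM at day 21, while SNAP25 was higher (7.92 ± 1.41 CPM at day 45 and 2.65 ± 0.462 CPM at day 21). Of the 4 endothelial markers, KDR averaged 9.45 ± 1.41 CPM at day 45 and 28.5 ± 4.23 CPM at day 21. TEK averaged 0.908 ± 0.3299 CPM at day 45 and 0.202 ± 0.136 CPM at day 21, with CDH5 at 0 in every library. The 4 blood markers summed to 45.4 to 64.9 CPM at day 45 and 0.811 to 1.502 CPM at day 21. CD68, a lysosomal protein of macrophages, made up nearly all of it (53.3 ± 7.86 CPM at day 45 and 1.07 ± 0.335 CPM at day 21), with HBG1 and TYROBP at 0 in every library and PTPRC at no more than 0.115 CPM. The part of these cell types in the members' values was not tested. On log2(TPM + 1), the members called with limma were 14 higher and 13 lower. Of the 17838 genes tested, 2140 were higher and 8720 lower there. B3GAT3, SLC35B2 and UGDH, called higher on counts, were not called on log2(TPM + 1), at 0.23, 0.07 and 0.49. On that scale the median of all genes was -0.34, and relative to the median of each scale all 23 members called kept their direction.

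**Figure D1:**
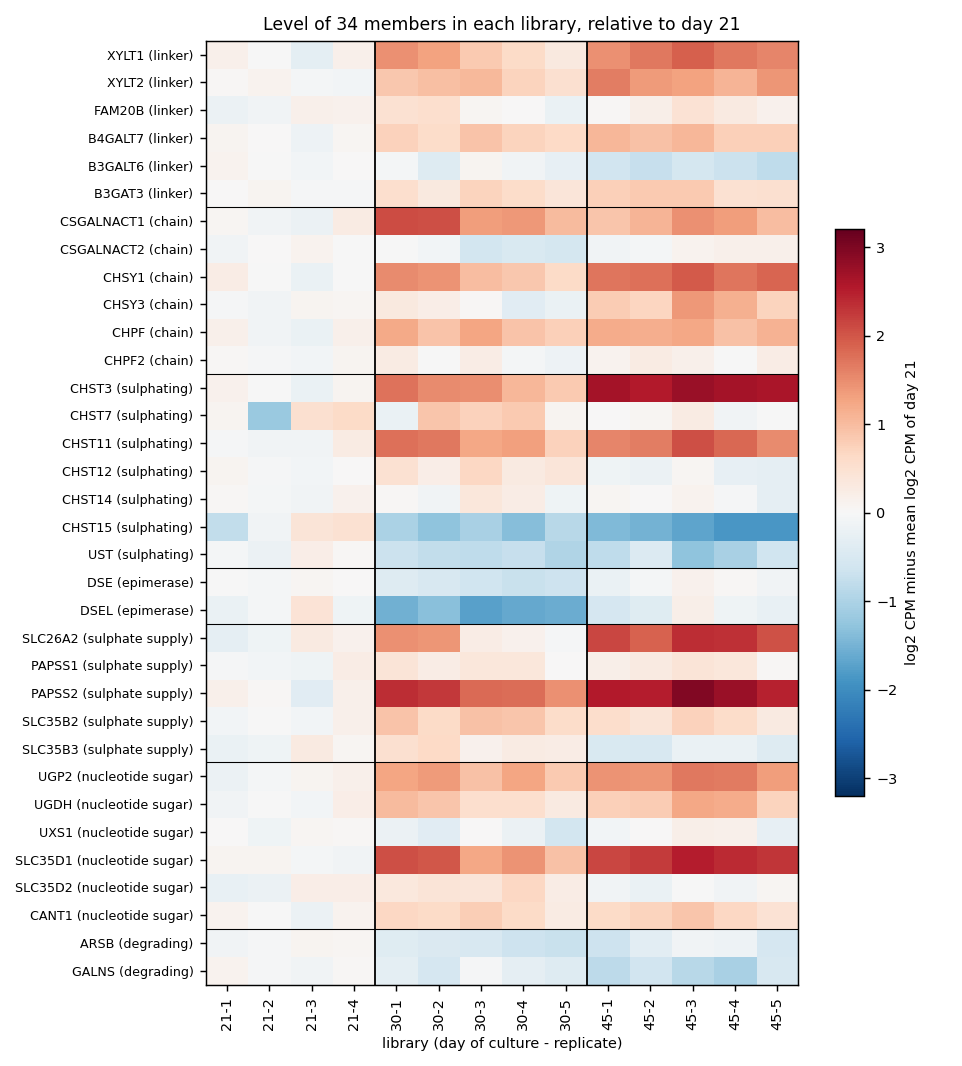
Log2 CPM of each member tested in each of the 14 libraries, less its mean at day 21, with members grouped by role and libraries in order of day and replicate. PAPSS2, CHST3, SLC35D1 and SLC26A2 are the members with the most positive values at day 45, and CHST15 has the most negative ones.

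Summed over the 35 members, expression per length was 1962 ± 80.2 TPM at day 21, 2562 ± 677 TPM at day 30 and 3501 ± 383 TPM at day 45 (SD, n = 4, 5 and 5). At day 30 the sum was 3364 and 3184 TPM in replicates 1 and 2, and 2311, 2143 and 1809 TPM in replicates 3 to 5. Libraries of day 21 held 1906 to 2081 TPM and those of day 45 held 3124 to 3956 TPM, so day 30 overlapped both. The order of the genes changed within that sum. At day 21 the highest were PAPSS1 with 203 ± 19.2 TPM, PAPSS2 with 188 ± 23.9 TPM and CHPF with 181 ± 14.03 TPM, which do not differ beyond their spread. At day 45 PAPSS2 stood alone with 873 ± 149 TPM, ahead of UGP2 with 382 ± 60.4 TPM, CHPF with 287 ± 15.8 TPM and XYLT1 with 257 ± 34.8 TPM. CHST7 and CHST13 were the lowest at every day, each below 1 TPM on average.

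Promoter sequences were compared because 20 members were higher at day 30 than at day 21 and 12 were higher at day 45 than at day 30. The 250 bases before each start listed by RefSeq on GRCh38.p14 were available for 32 members, matched by symbol, and not for CSGALNACT1, CANT1 and PAPSS2. All 32 hold the GC box GGGCGG on either strand, which 46.2% of all 27305 genes listed and 72.4% of the 12402 genes listed and tested also hold. The median GC content was 71.0% for the members, 64.8% for the genes tested and 58.0% for all genes. ACGTG, the core of a hypoxia response element, is in 10 of the 32, or 31.2%, against 28.0% of the genes tested, and CACGTG, an E-box that contains ACGTG on both strands, is in 6, or 18.8%, against 10.8%. AACAAT, a SOX site, is in 0 of 32, where 7.02% of the genes tested have it. TATAAA is in 1, and 8.42% of the genes tested have it. CCAAT is in 7, or 21.9%, against 40.5%, and the AP-1 site TGAGTCA is in 1, against 4.16%. These are matches of letters within a window and say nothing about binding. The 4 upstream windows printed here belong to the members more than 2-fold higher at day 45 with 1 listed start, in order of fold change, leaving out windows that reach further into a transcript. They show how GC-rich these starts are, and capitals mark GGGCGG and ACGTG on either strand.
SLC35D1: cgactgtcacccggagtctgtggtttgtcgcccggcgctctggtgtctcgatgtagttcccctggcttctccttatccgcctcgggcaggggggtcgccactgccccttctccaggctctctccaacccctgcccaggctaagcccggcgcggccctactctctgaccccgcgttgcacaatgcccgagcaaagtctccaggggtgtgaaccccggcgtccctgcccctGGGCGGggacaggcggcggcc
SLC26A2: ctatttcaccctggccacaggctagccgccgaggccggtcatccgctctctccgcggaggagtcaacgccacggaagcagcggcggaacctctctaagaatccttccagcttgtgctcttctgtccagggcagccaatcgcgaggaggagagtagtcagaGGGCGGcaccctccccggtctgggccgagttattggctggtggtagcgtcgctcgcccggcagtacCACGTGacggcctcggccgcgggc
CHSY1: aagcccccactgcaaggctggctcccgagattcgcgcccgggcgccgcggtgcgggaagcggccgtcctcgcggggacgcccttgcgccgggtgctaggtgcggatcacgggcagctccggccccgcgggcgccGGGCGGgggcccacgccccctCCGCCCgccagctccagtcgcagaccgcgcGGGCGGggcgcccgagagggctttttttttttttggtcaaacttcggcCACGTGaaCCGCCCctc
XYLT1: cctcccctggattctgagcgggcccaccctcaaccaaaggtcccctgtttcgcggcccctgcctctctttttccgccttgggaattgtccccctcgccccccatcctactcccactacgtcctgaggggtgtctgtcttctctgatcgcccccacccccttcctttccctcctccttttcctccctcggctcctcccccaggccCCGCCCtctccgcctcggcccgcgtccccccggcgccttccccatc
They lie at chr1:67054149-67054398 on the minus strand, chr5:149960508-149960757 on the plus strand, chr15:101252049-101252298 on the minus strand and chr16:17470961-17471210 on the minus strand. In GENCODE 29 annotation, 21 bases of the SLC26A2 window fall in its own exon and 0 bases of the others fall in an exon. SLC35D1, CHSY1 and XYLT1 begin there at 67054099, 101251932 and 17470881, downstream of the start listed by RefSeq. For these genes the bases just after the listed start matched no GENCODE 29 transcript of the gene. The capitals show 1 GC box for SLC35D1, 1 for SLC26A2, 4 for CHSY1 and 1 for XYLT1, and a CACGTG for SLC26A2 and CHSY1 alone.

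The linker enzymes were mostly higher at day 45 than at day 21, with 4 of 6 higher, 1 lower and 1 not called. XYLT1, the xylosyltransferase that puts the first sugar on the core protein and is mutated in a form of Desbuquois dysplasia, had 579, 519, 419.8 and 582 CPM at day 21. At day 30 XYLT1 had 1425, 1274, 923, 797 and 649 CPM, and at day 45 1438, 1673, 1966, 1676 and 1538 CPM. Every day 45 library was above every library of the other days, and at day 30 replicates 1 and 2 were above replicates 3 to 5. The gene (ENSG00000103489, chr16:17101769-17470881 on GRCh38, minus strand) was 3.16-fold higher at day 45 than at day 21 (log2 fold change 1.66 ± 0.20 SE, adjusted p = 1.69e-06). At day 30 against day 21 it was 1.93-fold higher (log2 fold change 0.95 ± 0.19 SE, adjusted p = 0.000573), and at day 45 against day 30 1.64-fold (log2 fold change 0.71 ± 0.18 SE, adjusted p = 0.00313). Without day 30 replicates 3 to 5 the difference between day 45 and day 30 was 0.29 on the log2 scale with an adjusted p of 0.12, and with an offset for transcript length it was 0.09, with that between day 30 and day 21 at 1.65. Its paralog XYLT2, the other xylosyltransferase, averaged 64.8 ± 9.19 CPM at day 45 and 25.1 ± 1.54 CPM at day 21 (SD, n = 5 and 4) and rose too (log2 fold change 1.37 ± 0.12 SE, adjusted p = 3.7e-08). XYLT1 kept 86.8% ± 1.83, 87.6% ± 2.51 and 89.3% ± 2.37 of the summed TPM of the pair at days 21, 30 and 45.

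The later steps of the linker did not move together. B4GALT7, which adds the first galactose, averaged 64.6 ± 6.53 CPM at day 45 and 34.1 ± 2.69 CPM at day 21 and was higher (log2 fold change 0.92 ± 0.10 SE, adjusted p = 3.78e-07). B3GAT3, which adds the closing glucuronic acid, was higher too, with 36.9 ± 4.35 CPM at day 45 and 22.8 ± 0.975 CPM at day 21 (log2 fold change 0.70 ± 0.10 SE, adjusted p = 2.08e-05). Between them in the pathway, B3GALT6, which adds the other galactose, had 38.4, 35.03, 33.2 and 35.6 CPM at day 21. At day 30 B3GALT6 had 34.1, 26.6, 37.5, 32.98 and 29.5 CPM, and at day 45 23.2, 21.3, 24.2, 21.97 and 20.3 CPM. All its day 45 libraries were below all those of the other days, and it fell at day 45 against day 21 (log2 fold change -0.68 ± 0.10 SE, adjusted p = 1.65e-05) and against day 30 (log2 fold change -0.53 ± 0.10 SE, adjusted p = 0.000174). FAM20B, the kinase that phosphorylates the xylose, averaged 122 ± 13.8 CPM at day 45 and 105 ± 12.7 CPM at day 21 and was not called in any comparison, but without day 30 replicates 3 to 5 it was higher at day 30 than at day 21 by 0.50 on the log2 scale (adjusted p = 0.00326).

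Of the 6 genes of chain growth, 4 were higher at day 45 than at day 21 and 2 passed in neither direction. CHSY1, a chondroitin synthase that alternates both sugars, had 178, 152, 130.5 and 152 CPM at day 21. At day 30 CHSY1 had 431, 413, 301, 275 and 233 CPM, and at day 45 498, 516, 589, 501 and 554 CPM. The 3 days did not overlap, and the gene (ENSG00000131873, chr15:101175723-101251932, minus strand) was 3.47-fold higher at day 45 than at day 21 (log2 fold change 1.80 ± 0.16 SE, adjusted p = 6.13e-08). CHSY3, the other synthase, had 42.9, 40.9, 47.1 and 45.6 CPM at day 21. At day 30 CHSY3 had 54.8, 51.3, 44.9, 34.4 and 37.8 CPM, and at day 45 77.8, 71.1, 116, 96.96 and 72.7 CPM. It was not called at day 30 against day 21 (log2 fold change 0.02 ± 0.15 SE, adjusted p = 0.933) and was higher at day 45 than at day 30 (log2 fold change 0.96 ± 0.15 SE, adjusted p = 3.59e-05). The difference between its later and its earlier change passed the test (difference 0.94 ± 0.26 SE, adjusted p = 0.00579).

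CSGALNACT1, which adds the N-acetylgalactosamine that starts the chain and whose loss causes a skeletal dysplasia, had 32.9, 29.2, 27.5 and 37.7 CPM at day 21. At day 30 CSGALNACT1 had 134, 132, 79.8, 82.9 and 63.5 CPM, and at day 45 58.5, 67.4, 86.96, 80.3 and 62.8 CPM. It was already 3.09-fold higher at day 30 than at day 21 (log2 fold change 1.63 ± 0.20 SE, adjusted p = 5.09e-06), and every library of days 30 and 45 was above every library of day 21. Day 45 and day 30 overlapped, and the fall between them (log2 fold change -0.47 ± 0.18 SE, adjusted p = 0.0398) was lost without any 1 of 7 single libraries, among them day 45 replicate 1, which left -0.40, and its sign turned on the TPM scale, to 0.07. Its paralog CSGALNACT2 averaged 40.01 ± 3.58 CPM at day 45 and 38.4 ± 2.39 CPM at day 21 (log2 fold change 0.06 ± 0.12 SE, adjusted p = 0.702). It was lower at day 30 than at day 21 (log2 fold change -0.33 ± 0.12) and higher at day 45 than at day 30 (0.39 ± 0.12), and without day 30 replicates 3 to 5 these were -0.06 and 0.10, neither called.

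CHPF, the polymerising factor that works with the synthases, had 267, 222, 206 and 268 CPM at day 21. At day 30 CHPF had 554, 453, 569, 453 and 404 CPM, and at day 45 543, 531, 563, 457 and 516 CPM. All libraries of days 30 and 45 were above those of day 21, with a 2.02-fold difference at day 30 (log2 fold change 1.02 ± 0.12 SE, adjusted p = 3.17e-06) and overlap between days 45 and 30 (log2 fold change 0.10 ± 0.11 SE, adjusted p = 0.463). CHPF2 averaged 171 ± 11.7 CPM at day 45 and 154 ± 8.64 CPM at day 21 and was called in no comparison of days. The share of CHPF in the TPM of the 2 genes was 67.4% ± 1.55, 79.7% ± 0.551 and 80.04% ± 1.03 at days 21, 30 and 45.

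Among the 7 sulphotransferases tested, CHST3 and CHST11 were higher at day 45 than at day 21, CHST15 and UST were lower, and 3 passed in neither direction. CHST3, the main chondroitin 6-O-sulphotransferase, whose loss causes a spondyloepiphyseal dysplasia, had 124, 111, 96.6 and 121 CPM at day 21. At day 30 CHST3 had 378, 320.2, 316, 237 and 200.2 CPM, and at day 45 715, 657, 766, 718 and 691 CPM. The 3 days did not overlap. CHST3 was higher by 2.56-fold at day 30 against day 21 (log2 fold change 1.36 ± 0.15 SE, adjusted p = 1.41e-06) and by 2.44-fold at day 45 against day 30 (log2 fold change 1.29 ± 0.14 SE, adjusted p = 1.56e-06), and the later step less the earlier one was not called (difference -0.07 ± 0.25 SE, adjusted p = 0.827). Over the whole interval the gene (ENSG00000122863, chr10:71964365-72013564, plus strand) was 6.27-fold higher at day 45 than at day 21 (log2 fold change 2.65 ± 0.16 SE, adjusted p = 3.9e-10), the largest fold change of the 34 members tested, with PAPSS2 close behind. CHST7, the other 6-O-sulphotransferase, stayed between 0.253 and 1.07 CPM in all libraries and was not called (log2 fold change -0.09 ± 0.34 SE, adjusted p = 0.833).

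CHST11, the main 4-O-sulphotransferase, had 85.3, 81.7, 82.1 and 105 CPM at day 21. At day 30 CHST11 had 297, 286, 208, 217 and 146 CPM, and at day 45 259, 272, 366, 313 and 253 CPM. It was 2.61-fold higher at day 30 than at day 21 (log2 fold change 1.38 ± 0.18 SE, adjusted p = 6.34e-06), without overlap. Day 45 overlapped day 30 and the difference was not called (log2 fold change 0.34 ± 0.16 SE, adjusted p = 0.084), although it passed when day 30 replicate 1 or replicate 2 was left out, at 0.45 and 0.43. Day 30 replicates 1 and 2 averaged 291.5 CPM and replicates 3 to 5 averaged 190.6 CPM, against 292.5 ± 47.1 CPM at day 45. The later change of CHST11 was smaller than its earlier change (difference -1.04 ± 0.28 SE, adjusted p = 0.00545) on the log2 scale. CHST12, which also sulphates the 4-O position, averaged 22.6 ± 1.23 CPM at day 21, 30.1 ± 3.84 CPM at day 30 and 20.2 ± 2.04 CPM at day 45. It was higher at day 30 than at day 21 (log2 fold change 0.42 ± 0.10 SE, adjusted p = 0.00284; on log2(TPM + 1) the sign was negative, at -0.05, and above the all-gene median) and lower at day 45 than at day 30 (log2 fold change -0.58 ± 0.10 SE, adjusted p = 0.000117).

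Set against each other per length, the 6-O enzymes CHST3 and CHST7 made up 40.9% ± 2.53 of the summed TPM of the 6-O enzymes and the 4-O enzymes CHST11, CHST12 and CHST13 at day 21, 45.3% ± 2.45 at day 30 and 62.9% ± 1.97 at day 45 (SD, n = 4, 5 and 5). The 4 libraries of day 21 held 37.5% to 43.4%, the 5 of day 30 41.9% to 48.6% and the 5 of day 45 60.8% to 65.4%, so days 21 and 30 overlapped and day 45 lay above both. That sum leaves out CHST14, the 4-O-sulphotransferase of dermatan sulphate. With CHST14 counted, a choice made after seeing the data, the 6-O enzymes held 25.1% ± 1.45 at day 21, 34.96% ± 2.78 at day 30 and 54.6% ± 2.02 at day 45, with no overlap between days. These are shares of transcripts, not of sulphate on the chain.

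**Figure D2:**
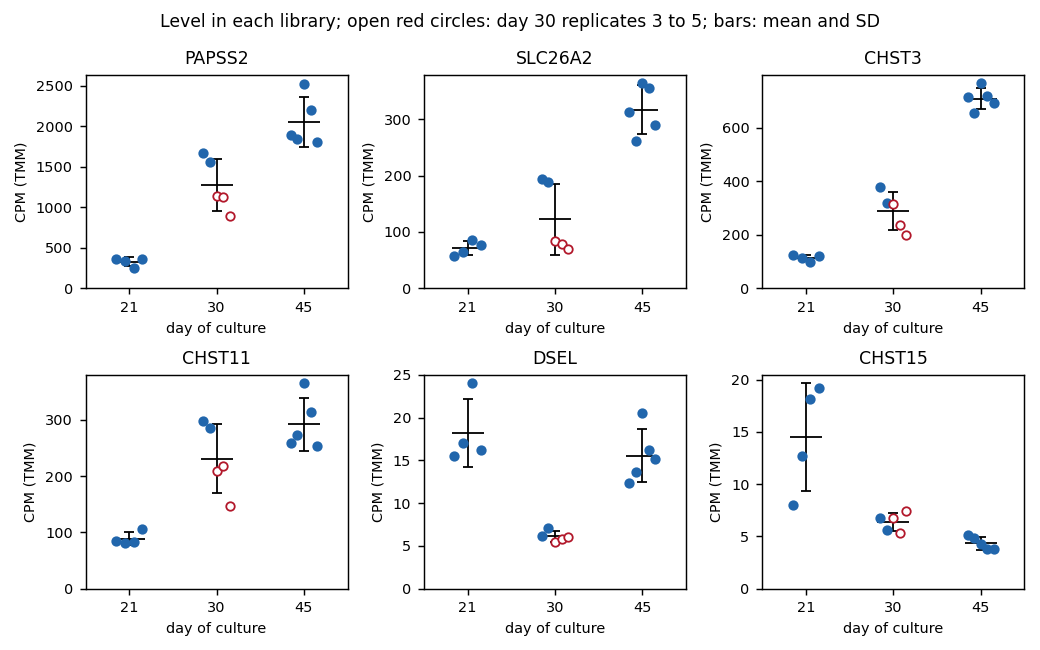
CPM of PAPSS2, SLC26A2, CHST3, CHST11, DSEL and CHST15 in every library, by culture day, with points for libraries and bars for the mean and SD of each day; open circles are day 30 replicates 3 to 5. The first 4 are higher at day 45 than at day 21 in every library, DSEL has its lowest values at day 30, and CHST15 is highest at day 21.

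The enzymes CHST15 and UST, which add less common sulphates, were both lower at day 45 than at day 21. CHST15, which adds a 6-O-sulphate to units that already carry a 4-O-sulphate, had 7.98, 12.7, 18.1 and 19.2 CPM at day 21. At day 30 CHST15 had 6.77, 5.56, 6.71, 5.36 and 7.42 CPM, and at day 45 5.14, 4.804, 4.22, 3.78 and 3.75 CPM. All day 30 libraries were below all day 21 libraries, and all day 45 libraries were below both. The fold at day 45 against day 21 was 0.3003 (log2 fold change -1.74 ± 0.21 SE, adjusted p = 1.5e-06), and 0.441 at day 30 against day 21 (log2 fold change -1.18 ± 0.20 SE, adjusted p = 0.000115). At day 45 against day 30 the difference (log2 fold change -0.56 ± 0.20 SE, adjusted p = 0.0275) was lost without day 30 replicate 5 or any 1 of day 45 replicates 3, 4 and 5, at -0.48 to -0.54. UST, which adds sulphate to the 2-O position of the uronic acid, averaged 4.03 ± 0.923 CPM at day 45 and 7.096 ± 0.831 CPM at day 21 and was lower (log2 fold change -0.82 ± 0.16 SE, adjusted p = 0.00028), as it was at day 30 against day 21 (log2 fold change -0.80 ± 0.16 SE, adjusted p = 0.000433). CHST14, the 4-O-sulphotransferase of dermatan sulphate, averaged 50.05 ± 5.22 CPM at day 45 and 51.04 ± 4.17 CPM at day 21 and was not called (log2 fold change -0.03 ± 0.11 SE, adjusted p = 0.848).

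Both epimerases, which turn glucuronic into iduronic acid and so make dermatan sulphate, were lower at day 30 than at day 21 and higher at day 45 than at day 30. DSEL had 15.5, 17.02, 24.1 and 16.2 CPM at day 21. At day 30 DSEL had 6.12, 7.14, 5.42, 5.802 and 5.998 CPM, and at day 45 12.4, 13.6, 20.5, 16.2 and 15.2 CPM. All 5 libraries of day 30 lay below all 9 others, while day 45 overlapped day 21. Its fold was 0.334 at day 30 against day 21 (log2 fold change -1.58 ± 0.16 SE, adjusted p = 3.4e-07) and 2.56 at day 45 against day 30 (log2 fold change 1.35 ± 0.15 SE, adjusted p = 1.95e-06), and the later change differed from the earlier one by 2.93 ± 0.28 on the log2 scale (adjusted p = 6.57e-07). DSE, with the higher TPM of the pair, averaged 64.1 ± 2.73 CPM at day 21, 42.7 ± 3.71 CPM at day 30 and 62.4 ± 5.88 CPM at day 45. It too was lower at day 30 than at day 21 (log2 fold change -0.58 ± 0.09 SE, adjusted p = 3.74e-05) and higher at day 45 than at day 30 (log2 fold change 0.55 ± 0.09 SE, adjusted p = 4.93e-05). With an offset for transcript length DSEL gave -0.84 and 0.70, both still called. Of the exon bases of DSEL, 34.7% are shared with AC110597.3 on the other strand, and the library kit does not mark strand, so reads of the 2 genes there cannot be told apart.

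The sulphate supply held the member with the highest TPM at days 30 and 45. PAPSS2, the PAPS synthetase whose loss causes a spondyloepimetaphyseal dysplasia, had 363, 334, 255 and 364 CPM at day 21. At day 30 PAPSS2 had 1668, 1557, 1141, 1124 and 898 CPM, and at day 45 1889.9, 1845, 2525, 2202 and 1809 CPM. The 3 days did not overlap. PAPSS2 (ENSG00000198682, chr10:87659613-87747705, plus strand) was 3.88-fold higher at day 30 than at day 21 (log2 fold change 1.96 ± 0.18 SE, adjusted p = 1.69e-07) and 6.25-fold higher at day 45 than at day 21 (log2 fold change 2.64 ± 0.19 SE, adjusted p = 2.75e-09). The difference between day 45 and day 30 (log2 fold change 0.68 ± 0.16 SE, adjusted p = 0.00196) was 0.34 without day 30 replicates 3 to 5, with an adjusted p of 0.0939. PAPSS1, the other PAPS synthetase, averaged 214 ± 26.4 CPM at day 21, 259 ± 26.3 CPM at day 30 and 256 ± 26.5 CPM at day 45, and it lay on the threshold. It passed at day 30 against day 21 (log2 fold change 0.27 ± 0.11 SE, adjusted p = 0.0474) and not at day 45 against day 21 (log2 fold change 0.26 ± 0.11 SE, adjusted p = 0.0574), and 10 of the 14 fits that leave out 1 library lost the call at day 30, at 0.22 to 0.29. The share of PAPSS2 in the TPM of the 2 synthetases was 47.9% ± 3.52 at day 21, 74.4% ± 3.92 at day 30 and 82.9% ± 1.19 at day 45.

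SLC26A2, the sulphate transporter of the plasma membrane that is mutated in diastrophic dysplasia, had 58.2, 64.9, 86.2 and 77.3 CPM at day 21. At day 30 SLC26A2 had 194, 189.7, 83.8, 78.1 and 69.1 CPM, and at day 45 313, 262, 364, 356 and 289 CPM. Every day 45 library was above every library of the other days, whereas at day 30 replicates 1 and 2 were above the day 21 range and replicates 3 to 5 were within it. The gene (ENSG00000155850, chr5:149960737-149993455, plus strand) was 4.43-fold higher at day 45 than at day 21 (log2 fold change 2.15 ± 0.30 SE, adjusted p = 1.56e-05). At day 30 against day 21 the log2 fold change was 0.78 ± 0.28 (adjusted p = 0.0297), and it was 1.42 without day 30 replicates 3 to 5. The call was lost without day 21 replicate 1, 2 or 4, at 0.69, 0.73 and 0.82, and without day 30 replicate 1 or 2, at 0.55 and 0.57. At day 45 against day 30 the log2 fold change was 1.37 ± 0.27 (adjusted p = 0.000519), and 0.71 without those 3 libraries.

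The Golgi carriers of PAPS had their highest mean CPM at day 30. In TPM this held for SLC35B2, while SLC35B3 averaged 26.7 ± 5.67 TPM at day 21, 24.6 ± 6.18 TPM at day 30 and 14.7 ± 1.82 TPM at day 45. SLC35B2 averaged 71.2 ± 5.74 CPM at day 21, 123 ± 13.6 CPM at day 30 and 102 ± 11.8 CPM at day 45. It was higher at both later days than at day 21, by 0.79 ± 0.11 at day 30 and 0.52 ± 0.11 at day 45 on the log2 scale. On log2(TPM + 1) that at day 45 was 0.07 and not called. It was lower at day 45 than at day 30 (log2 fold change -0.27 ± 0.10 SE, adjusted p = 0.0299), a call that was lost without any 1 of 5 single libraries, at -0.25 to -0.21. SLC35B3, the other carrier, averaged 24.1 ± 3.87 CPM at day 21, 30.7 ± 4.46 CPM at day 30 and 18.6 ± 1.99 CPM at day 45. It was lower at day 45 than at day 30 (log2 fold change -0.73 ± 0.12 SE, adjusted p = 8.34e-05) and lower at day 45 than at day 21 (log2 fold change -0.37 ± 0.13 SE, adjusted p = 0.017), though without day 21 replicate 3 that against day 21 was -0.27 and not called. At day 30 against day 21 it was higher (log2 fold change 0.35 ± 0.13 SE, adjusted p = 0.0254), a call lost without any 1 of 4 single libraries, at 0.28 to 0.32, and with a negative sign on log2(TPM + 1), at -0.12.

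Genes of the nucleotide sugars were higher at day 45 than at day 21 in 4 of 6 cases, and the other two passed in neither direction. SLC35D1, which carries UDP-glucuronic acid and UDP-N-acetylgalactosamine into the lumen and is mutated in Schneckenbecken dysplasia, had 41.3, 41.8, 37.3 and 36.2 CPM at day 21. At day 30 SLC35D1 had 162, 154, 92.6, 107 and 74.7 CPM, and at day 45 172, 184, 224, 204 and 189 CPM. The 3 days did not overlap, and the gene (ENSG00000116704, chr1:66999332-67054099, minus strand) was 4.97-fold higher at day 45 than at day 21 (log2 fold change 2.31 ± 0.19 SE, adjusted p = 2.22e-08). SLC35D2, a related carrier, averaged 5.4 ± 0.9002 CPM at day 21, 7.11 ± 0.808 CPM at day 30 and 5.06 ± 0.371 CPM at day 45 and was lower at day 45 than at day 30 (log2 fold change -0.49 ± 0.13 SE, adjusted p = 0.00413). This call was not kept in every alternative that starts from the counts. Of the exon bases of SLC35D2, 46.8% are shared with AL160269.1, which averaged 0.056 CPM.

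UGP2, which makes UDP-glucose, had 95.7, 103.7, 115 and 122 CPM at day 21. At day 30 UGP2 had 261, 281, 207, 261 and 193 CPM, and at day 45 293, 288, 348, 345 and 273 CPM. It was 2.84-fold higher at day 45 than at day 21 (log2 fold change 1.51 ± 0.13 SE, adjusted p = 2.62e-08), with no overlap between those days. The difference between day 45 and day 30 (log2 fold change 0.36 ± 0.12 SE, adjusted p = 0.0139) was 0.18 and not called without day 30 replicates 3 to 5. UGDH, which oxidises UDP-glucose to UDP-glucuronic acid, averaged 234 ± 42.3 CPM at day 45 and 120.4 ± 12.1 CPM at day 21 and was higher (log2 fold change 0.96 ± 0.15 SE, adjusted p = 3.75e-05). UXS1, which makes the UDP-xylose of the linker from UDP-glucuronic acid, averaged 38.2 ± 4.67 CPM at day 45 and 37.9 ± 2.28 CPM at day 21 and was not called (log2 fold change 0.01 ± 0.12 SE, adjusted p = 0.941). CANT1, a nucleotidase of the Golgi that clears the UDP left by the transferases and is mutated in Desbuquois dysplasia, averaged 128 ± 13.2 CPM at day 45 and 80.5 ± 7.83 CPM at day 21 and was higher (log2 fold change 0.67 ± 0.11 SE, adjusted p = 6.66e-05).

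Both lysosomal sulphatases were lower at day 45 than at day 21. GALNS, the 6-sulphatase that is deficient in Morquio syndrome A, had 37.2, 33.3, 31.7 and 34.9 CPM at day 21. At day 30 GALNS had 27.7, 23.5, 33.4, 27.9 and 25.6 CPM, and at day 45 19.2, 22.3, 18.6, 16.6 and 23.9 CPM. Days 45 and 21 did not overlap, and GALNS was lower (log2 fold change -0.77 ± 0.12 SE, adjusted p = 2.18e-05). ARSB, the 4-sulphatase that is deficient in Maroteaux-Lamy syndrome, averaged 55.2 ± 3.66 CPM at day 21, 37.9 ± 3.49 CPM at day 30 and 43.3 ± 6.82 CPM at day 45. It was lower than at day 21 both at day 30 (log2 fold change -0.54 ± 0.11 SE, adjusted p = 0.000555) and at day 45 (log2 fold change -0.35 ± 0.11 SE, adjusted p = 0.0117), and days 45 and 30 did not differ past the threshold (log2 fold change 0.19 ± 0.11 SE, adjusted p = 0.134). The call for ARSB at day 30 was not kept in every alternative that starts from the counts, while that at day 45 was.

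**Figure D3:**
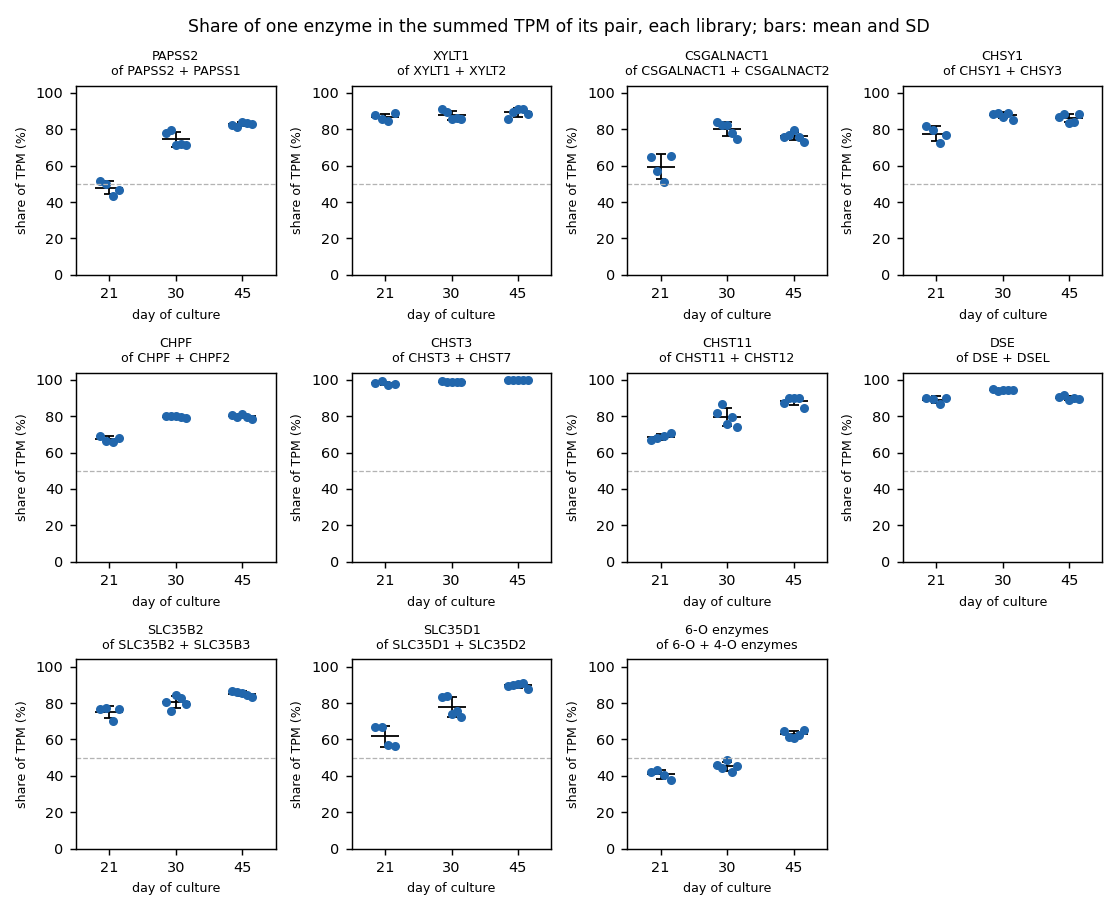
Share of the first-named gene in the summed TPM of each pair of paralogs, in percent, by library and culture day, with the mean and SD of each day, and in the last panel the share of the 6-O enzymes in the sum of 6-O and 4-O enzymes without CHST14; dashes mark equal shares. The share of PAPSS2 over PAPSS1 averages 82.9% at day 45 and 47.9% at day 21, and that of CHST3 over CHST7 is at least 97.4% in every library.

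In each of the 10 pairs of related genes, the gene with the larger share at day 45 also had a larger share at day 45 than at day 21 on average. For XYLT1 (86.8% ± 1.83 at day 21 and 89.3% ± 2.37 at day 45) the libraries of those days overlapped. So did those for DSE (89.1% ± 1.8 at day 21 and 90.2% ± 1.09 at day 45). By TPM the widest shifts were in PAPSS2, SLC35D1, CHST11 and CSGALNACT1. By CPM, which is not divided by length, SLC35D1 moved less, with 97.5% of its pair at day 45 and 87.8% at day 21, and CHPF, with 75.3% at day 45 and 60.9% at day 21, moved more than SLC35D1 and CHST11. SLC35D1 made up 61.7% ± 5.88 of its pair at day 21, 77.9% ± 5.47 at day 30 and 89.7% ± 1.35 at day 45. CHST11 made up 68.7% ± 1.72, 79.6% ± 5.05 and 88.4% ± 2.51 of its pair with CHST12 at days 21, 30 and 45, and CSGALNACT1 59.5% ± 6.78, 80.2% ± 3.88 and 76.3% ± 2.37. For PAPSS2 and SLC35D1 the days 45 and 21 were far apart, with a lowest day 45 library of 81.1% and 87.6%, against a highest day 21 library of 51.5% and 66.9%. No test was made of these shares.

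By interval, 20 of 34 members were higher and 7 were lower at day 30 against day 21, where 27.2% of all genes tested were higher and 27.1% lower, 54.4% in either direction. The libraries of those days did not overlap in 17 members that were higher and 5 that were lower, against 20% and 22.4% of the genes tested. The median log2 fold change was 0.41 over the members and 0.02 over all genes. For day 45 against day 30, 12 were higher and 8 lower, where 27.6% of all genes tested were higher and 28.7% lower, 56.3% in either direction. The medians were 0.19 over the members and -0.04 over all genes, and the libraries did not overlap in 10 members that were higher and 5 that were lower, against 19.8% and 18.6% of the genes tested. Without day 30 replicates 3 to 5 the counts were 19 higher and 6 lower at day 30 against day 21, and 8 higher and 6 lower at day 45 against day 30. Of the 18509 genes tested in that setting, 3633 were higher and 4012 lower, and 3628 higher and 3564 lower, in the same order. The medians at day 45 against day 30 were then 0.0279 over the members and -0.0065 over all genes. With the length offset these medians were 0.0483 and 0.027. On log2(TPM + 1) the counts of members were 10 higher and 13 lower, and 15 higher and 5 lower, in the same order of comparisons. All 17838 genes tested gave 1788 higher and 9032 lower, and 4839 higher and 4164 lower, on log2(TPM + 1). On that scale CHST12, PAPSS1, SLC35B3, UGDH, SLC35D2 and CANT1, called higher at day 30 against day 21 on counts, had negative values, all above the all-gene median of -0.35. XYLT1, B4GALT7, B3GAT3 and SLC26A2 were positive there and not called, at 0.46, 0.19, 0.08 and 0.19. At day 45 against day 30, CHST15 at -0.20 and SLC35B2 at -0.25 were not called on that scale. With the library of conflicting labels left out the counts of the 2 intervals were 19 higher and 7 lower, and 13 higher and 7 lower, and with it placed at day 30 they were 17 higher and 6 lower, and 11 higher and 4 lower. Without day 45 replicate 5, 14 were higher and 5 lower at day 45 against day 30.

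**Figure D4:**
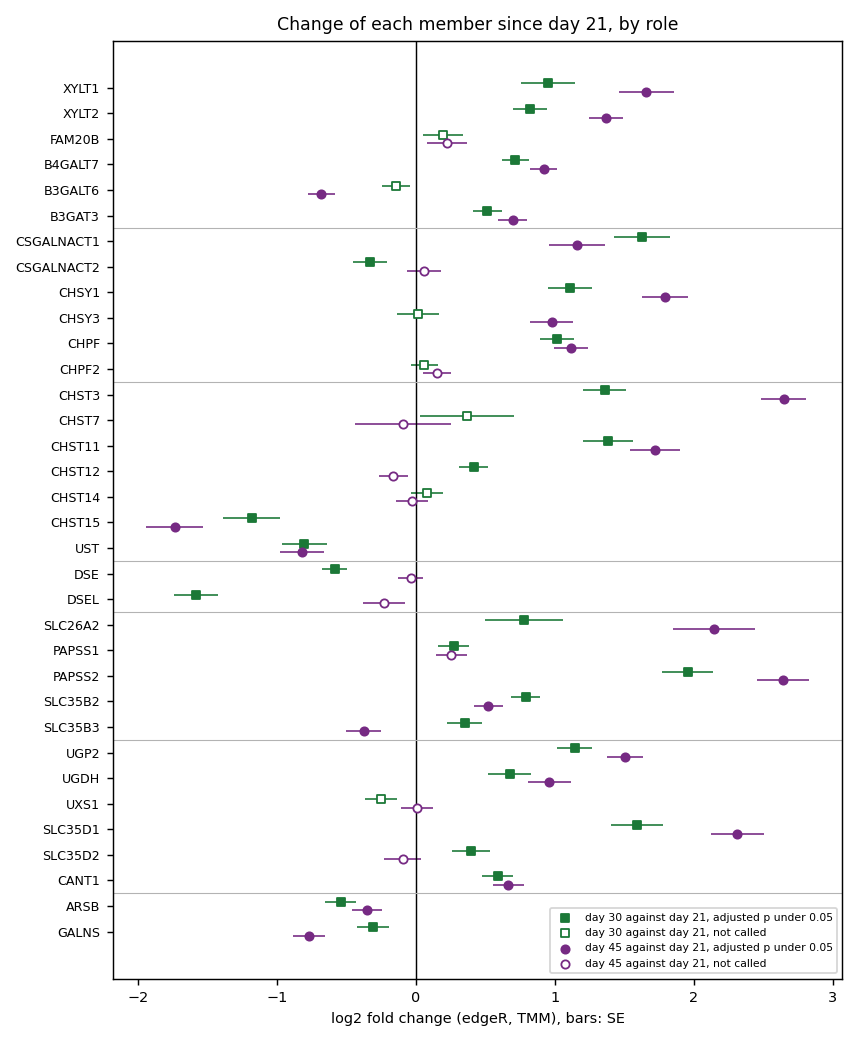
Log2 fold change of each member tested, with its SE, at day 30 (squares) and day 45 (circles), each against day 21, filled where adjusted p is below 0.05, with members grouped by role. CHST3 reaches 2.65 and PAPSS2 2.64 at day 45 against day 21, and CHST15 is the lowest at -1.74.

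The 8 members called higher in both intervals were XYLT1, XYLT2, CHSY1, CHST3, SLC26A2, PAPSS2, UGP2 and SLC35D1. A further 7, B4GALT7, B3GAT3, CHPF, CHST11, PAPSS1, UGDH and CANT1, were higher in the first interval and not called in the second. CSGALNACT1, CHST12, SLC35B2, SLC35B3 and SLC35D2 were higher and then lower, and CSGALNACT2, DSE and DSEL were lower and then higher. CHST15 and GALNS were lower in both, UST and ARSB lower in the first interval alone, CHSY3 higher and B3GALT6 lower in the second alone, and FAM20B, CHPF2, CHST7, CHST14 and UXS1 were called in neither. Across the alternatives that start from the counts, 22 of 23 calls at day 45 against day 21 were kept in every one, SLC35B3 being the exception, as were 20 of 27 at day 30 against day 21 and 10 of 20 at day 45 against day 30. The calls not kept at day 30 against day 21 were those of CSGALNACT2, SLC26A2, PAPSS1, SLC35B3, SLC35D2, ARSB and GALNS. At day 45 against day 30 they were those of XYLT1, XYLT2, CSGALNACT1, CSGALNACT2, CHST15, PAPSS2, SLC35B2, UGP2, SLC35D2 and GALNS. Of the members called higher in both intervals, only CHSY1, CHST3 and SLC35D1 kept both calls. The difference between the 2 changes passed the test in 19 of 34 members, 55.9%, close to the 52.7% of all genes tested, with 7 more positive and 12 more negative in the later interval, against 25.3% and 27.5% of the genes tested. Both comparisons share the libraries of day 30, so a member high or low there enters them with opposite sign. In 16 of the 34 members day 30 replicates 1 and 2 were both above replicates 3 to 5, in 0 both were below, and in 18 they overlapped, while 24.5% of all genes tested were higher and 23.1% lower in that split.

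Genes around the module were read from 8 lists of related pathways, counted at day 45 against day 21. Of all 17838 genes tested, 4836 were higher and 5448 lower on counts. On log2(TPM + 1) these were 2140 higher and 8720 lower. Of the core proteins that carry chondroitin sulphate, 7 were higher and 4 were lower of 11 tested. ACAN, the aggrecan core protein, averaged 37346 ± 4115 CPM at day 45 and 3060 ± 709.5 CPM at day 21 (log2 fold change 3.61 ± 0.30 SE, adjusted p = 1.95e-08). VCAN, the versican of early mesenchyme, averaged 109 ± 18.7 CPM at day 45 and 973 ± 132 CPM at day 21, a difference in the other direction (log2 fold change -3.16 ± 0.27 SE, adjusted p = 5.08e-08). CD44, a hyaluronan receptor that can carry the chain, was higher (log2 fold change 3.14 ± 0.18 SE, adjusted p = 2.62e-10). The supply of hexosamine and other nucleotide sugars had 9 of 10 higher and 0 lower, with 6 higher and 0 lower on log2(TPM + 1). GFPT2, which starts the hexosamine pathway, and PGM1, which feeds UGP2 with glucose phosphate, had log2 fold changes of 1.94 ± 0.13 and 1.33 ± 0.10.

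Of the other genes of sulphate transport and recycling, 6 of 10 were higher and 1 was lower, and 6 higher and 3 lower on log2(TPM + 1). CTH and CDO1, which act on cysteine, from whose sulphur cells can make sulphate, had log2 fold changes of 2.47 ± 0.16 and 1.92 ± 0.18, and SLC26A11, an anion transporter, 0.79 ± 0.11. Keratan sulphate synthesis had 4 of 6 higher and 0 lower, and 3 higher and 1 lower on log2(TPM + 1), with log2 fold changes on counts for B4GALT4 at 1.65 ± 0.10, B4GALT1 at 1.36 ± 0.10 and B3GNT7 at 1.47 ± 0.14. The first steps of heparan sulphate, which branch from the same linker, had 2 of 5 higher and 3 lower, and 1 higher and 3 lower on log2(TPM + 1), with log2 fold changes on counts for EXTL1 at 1.10 ± 0.13 and the polymerase genes EXT1 at -0.83 ± 0.12 and EXT2 at 0.60 ± 0.10, the last 0.26 on log2(TPM + 1) and not called there. Other enzymes and cofactors of linker and chain had 1 of 8 higher and 4 lower. They include PXYLP1, which removes the xylose phosphate that FAM20B adds, with a log2 fold change of -0.83 ± 0.14. CHST9, which sulphates N-acetylgalactosamine of other glycans, averaged 0.106 ± 0.112 CPM at day 45 and 3.05 ± 0.0697 CPM at day 21, and B3GAT1, which makes the HNK carbohydrate of nerve cells, 0.216 ± 0.314 CPM at day 45 and 1.94 ± 0.362 CPM at day 21, and both were lower.

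Other enzymes that break chondroitin sulphate or hyaluronan had 3 of 11 higher and 4 lower, and 1 higher and 7 lower on log2(TPM + 1). HYAL1, a lysosomal hyaluronidase, had a log2 fold change of 2.63 ± 0.23, CEMIP, which binds and depolymerises hyaluronan, -2.90 ± 0.37, and IDUA, the iduronidase, -0.76 ± 0.14. Golgi homeostasis genes had 2 of 7 higher and 2 lower, and 1 higher and 4 lower on log2(TPM + 1), with log2 fold changes on counts for SLC10A7 at 0.95 ± 0.17 and ATP6V0A2 at -0.33 ± 0.11, while GOLGB1 at 0.39 ± 0.12 turned to -0.15 on log2(TPM + 1). The median log2 fold changes were 1.04 for core proteins, 1.09 for nucleotide sugars, 0.84 for sulphate, 0.90 for keratan sulphate, 0.15 for the Golgi genes, -0.03 for the degrading enzymes, -0.19 for the other linker and chain genes and -0.54 for heparan sulphate, with 0.39 for the members and -0.05 for all genes.

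**Figure D5:**
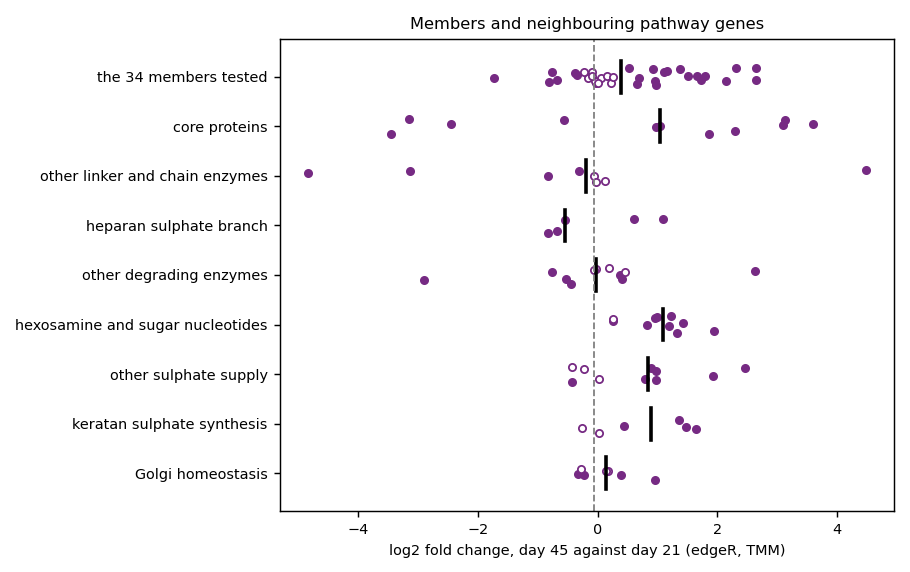
Log2 fold change at day 45 against day 21 of each gene tested in the 8 pathway lists and among the members, with a line at each list's median, a dashed line at the median of all genes, and filled points where adjusted p is below 0.05. The lists of nucleotide sugars and core proteins have the highest medians, 1.09 and 1.04, and the heparan sulphate list the lowest, -0.54.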

How the data were processed

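RNA-seq of 14 libraries was deposited as 1 gene table per library, holding TPM, expected counts and effective lengths. The submitters' processing notes name STAR 2.4.2a, RSEM 1.2.25 and the build GRCh38. Per the labels' protocols, RNA was extracted with an RNeasy micro kit and libraries were made with the TruSeq kit v2. Which annotation was used is not stated in these sources.

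The main unit was the deposited expected count, rounded to whole numbers. The deposited TPM were used for levels per length and, as log2(TPM + 1) or log2(TPM + 0.1), in alternatives with limma 3.58.1. The effective length, another of the deposited columns, was used in an offset. CPM and log2 fold changes were computed from the counts.

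Members were found by symbol, and each had 1 identifier. Coordinates came from GENCODE 29. Genes passing filterByExpr with day as the group (17838) were fitted in 1 model over the 14 libraries with edgeR 4.0.16 (TMM scaling, robust quasi-likelihood F-test), and p-values were adjusted by Benjamini-Hochberg over all of them, with calls below 0.05. DESeq2 1.42.0 was an alternative. The fits were tested on simulated data. Each SE is the log2 fold change divided by the square root of F. A fold of 2 was used to describe members, with no test. Correlations of same-numbered libraries ran from -0.251 to 0.116, so no block was used. They were not compared with those of differently numbered libraries, so pairing is not excluded. Replicates of a day differed by 7.21 to 155.79 chi-square units per degree of freedom, so none was counted as a copy.

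The members, lists and tests were chosen with earlier results of these data known. All 35 members were named, and from each pathway list the 3 genes with the smallest adjusted p at day 45 against day 21, of which 1 is not reported here.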

Additional observations from a re-analysis of the deposited data

Results flagged for a closer look

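CHST11 in day 21 replicate 4 had 105 CPM, while the other 3 libraries of day 21 lay between 81.7 and 85.3 CPM. The gap to its nearest neighbour was 0.846 of the range of the 4 libraries. It was the single such value among 102 groups of 4 or 5 libraries checked, where chance gives about 1 in 20. Without that library CHST11 was still called higher at days 30 and 45 than at day 21.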

How the results depend on the processing

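The counts of members were recomputed under 25 alternatives. On counts of reads they stayed within 1.5 times with 2 exceptions, both among the members lower at day 45 than at day 30. The first was that these numbered 4, in place of 8, with the library of conflicting labels placed at day 30. Leaving out each library in turn gave 17 to 18 higher and 5 to 6 lower at day 45 against day 21, 16 to 20 and 5 to 7 at day 30 against day 21, and 12 to 14 and 5 to 8 at day 45 against day 30, the other exception being the 5 lower when day 45 replicate 5 was left out. The later change differed from the earlier one in 17 to 20. On both TPM scales 13 members were lower at day 45 against day 21, 10 were higher and 13 lower at day 30 against day 21, and 5 were lower at day 45 against day 30. Of the 17838 genes tested, 8720 were lower at day 45 against day 21 on log2(TPM + 1). At day 30 against day 21, 1788 were higher and 9032 lower there, and 4164 were lower at day 45 against day 30. The later change differed in 12 on log2(TPM + 0.1).

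On TPM the signs of these members turned where the change was called on counts or on TPM, given first on log2(TPM + 1) and then on log2(TPM + 0.1). At day 45 against day 21 they were CHPF2 at -0.29 and -0.29 and UXS1 at -0.46 and -0.47. At day 30 against day 21 they were FAM20B at -0.51 and -0.53, CHSY3 at -0.46 and -0.48, CHPF2 at -0.35 and -0.36, CHST12 at -0.0518 and -0.0553, CHST14 at -0.38 and -0.39, PAPSS1 at -0.22 and -0.22, SLC35B3 at -0.12 and -0.13, UGDH at -0.15 and -0.15, SLC35D2 at -0.0766 and -0.0835 and CANT1 at -0.0141 and -0.0146. At day 45 against day 30 it was CSGALNACT1 at 0.0653 and 0.0685. With the length offset FAM20B at day 45 against day 30 gave -0.33. Signs on TPM also turned, with no call on counts or on TPM, for FAM20B, CSGALNACT2 and PAPSS1 at day 45 against day 21, CHST7 at day 30 against day 21 and PAPSS1 at day 45 against day 30. The medians of all genes at day 30 against day 21 were -0.35 and -0.45 on these scales.

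No pairing of libraries by replicate number was found, and none was excluded. With the number as a replicate block, 18 members were higher and 5 lower at day 45 against day 21, 20 and 5 at day 30 against day 21, and 13 and 6 at day 45 against day 30, and the later change differed in 18. Pair shares from CPM in place of TPM had other levels, with PAPSS2 at 88.9% of its pair at day 45 and 60.4% at day 21. The 18183776 or more counts per library left CHST13 below the filter.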

Other observations

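CHST8, an enzyme that puts 4-O-sulphate on N-acetylgalactosamine of hormone glycans and not a member, was named after its values were seen. It had 0.589, 0.638, 0.147, 0.165 and 1.98 CPM at day 45, against 0.0278, 0.0760, 0 and 0 CPM at day 21, while its paralog CHST9 was lower at day 45. EXTL1 of the heparan sulphate list was higher at day 30 than at day 21 by 2.03 ± 0.13 on the log2 scale and lower at day 45 than at day 30 by -0.93 ± 0.12. GFPT1, the other enzyme that starts the hexosamine pathway, was not called at day 30 against day 21 (log2 fold change 0.19 ± 0.17, SE) and higher at day 45 than at day 30 (1.03 ± 0.17, edgeR's quasi-likelihood test with Benjamini-Hochberg adjusted p = 6.34e-05).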
